A study of Homo sapiens with 47 samples.

Results

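The TFAP2 family is a set of 5 genes, *TFAP2A* to *TFAP2E*, that encode the AP-2 transcription factors. The members were taken by gene symbol, matched through the Ensembl identifier, and were 5 of the 58051 genes listed in each library. All 5 were found in each of the 47 libraries, and 4 of them passed the filter on low counts.

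AP-2 proteins bind GC-rich DNA as dimers, through a helix-span-helix domain at their C-terminal end, and activate or repress transcription together with co-factors of the CITED and p300/CBP families. In vertebrate embryos *TFAP2A* and *TFAP2B* act at the neural plate border and in the neural crest (NC), the migratory population that leaves the dorsal neural tube, and *TFAP2A* is also known for its role in non-neural ectoderm. *TFAP2C* is best known from trophoblast, primordial germ cells and naive pluripotent cells, while *TFAP2D* and *TFAP2E* have narrower patterns in the nervous system.

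The study followed WA09 (H9) cells, an established human embryonic stem cell (hESC) line, as they passed through a neuromesodermal progenitor (NMP)-like state to pre-neural progenitors (PNPs) and NC. The time points were undifferentiated hESCs grown in mTESR1 (t0), NMP-like cells at 36 h, and the mixed PNP/NC cultures from passage 1 (P1) to passage 10 (P10). The medium after t0 was N2B27 without vitamin A, supplemented with the WNT agonist CHIR-99021, rhFGF2, the retinoic acid receptor inverse agonist AGN193109 and the ROCK inhibitor Y-27632, whose dose differed between passages. At P5 and P8 an epithelial (EPI, PNP) and a mesenchymal (MES, NC) fraction were also taken by selective detachment with TrypLE. There were 3 differentiations (r1 to r3), each run through all stages, with 2 libraries at P9 (r1 and r2) and 3 in each of the other 15 groups. The fractions are enriched rather than pure, and all groups come from 1 line.

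Totals of expected counts per library ranged from 13029491 to 64082859, with a median of 47292229. Marker genes followed the labels with exceptions that touch the family. *POU5F1* (OCT4), a pluripotency factor, stood at 1569 to 1749 TPM (the deposited abundance, scaled for transcript length and library size) at t0, and at 36 h it was still at 1504 TPM in r1 against 593 TPM in r3. *CDX2*, a posterior progenitor factor, rose from at most 0.39 TPM at t0 to 21.8, 121 and 181 TPM at 36 h in r1, r2 and r3. In the fractions, *TWIST1*, a factor of mesenchymal NC, was higher in MES than in EPI in all 3 differentiations at both passages, and *SOX2*, a neural progenitor factor, was lower. The summed TPM of 13 NC genes was 128 to 319 in EPI and 564 to 754 in MES at P5, while at P8 the ranges overlapped. Not every NC marker followed: *SOX9* at P8 was at 26.8 TPM in MES and 28.0 TPM in EPI in r1 and at 58.9 and 102 TPM in r2, *FOXD3* at P8 was lower in MES in r2, and the means of *SOX8* and *MITF* were lower in MES at both passages. At P10 the r1 library held 214 TPM of *SOX2* and 193 TPM of *CDX2*, where r2 and r3 held at most 0.71 and 2.76 TPM. *SOX10*, a defining NC factor, was at most 24.1 TPM in any library and at most 0.92 TPM at P9 and P10.

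*TFAP2A* lies on the minus strand of chromosome 6 (chr6:10393186-10419659 of GRCh38, GENCODE 29) with 19 annotated transcripts. *TFAP2B* (chr6:50818723-50847613) and *TFAP2D* (chr6:50713828-50772988) are neighbours on the plus strand of the same chromosome, with 45734 bases between the end of *TFAP2D* and the start of *TFAP2B*. *TFAP2C* is at chr20:56629302-56639283 and *TFAP2E* at chr1:35573370-35595328, both on the plus strand. The annotation places antisense genes over 2 members: *TFAP2A-AS1* inside *TFAP2A* and *TFAP2E-AS1* (AC004865.2) across the start of *TFAP2E*.

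Promoter windows, from 250 bases before to 50 bases after an annotated start, were read from the RefSeq table (GRCh38.p14) and matched 4 of the 5 members by symbol, with *TFAP2A* having 2 windows. The windows below are shown because *TFAP2A* and *TFAP2B* are the members that went from near 0 to high levels, and *TFAP2D* is the neighbour of *TFAP2B* that did not. Capitals mark each TATAAA on either strand. The *TFAP2A* window is that of the upstream start, chr6:10419610-10419909 on the minus strand. The *TFAP2B* window is chr6:50818621-50818920 and that of *TFAP2D* chr6:50713276-50713575, both on the plus strand.
TFAP2A: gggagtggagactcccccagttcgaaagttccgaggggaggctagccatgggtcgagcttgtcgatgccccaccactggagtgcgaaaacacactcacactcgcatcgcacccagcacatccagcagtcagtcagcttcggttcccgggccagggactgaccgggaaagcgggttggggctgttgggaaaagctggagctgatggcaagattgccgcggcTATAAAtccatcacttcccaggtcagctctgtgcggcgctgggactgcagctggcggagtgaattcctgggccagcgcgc
TFAP2B: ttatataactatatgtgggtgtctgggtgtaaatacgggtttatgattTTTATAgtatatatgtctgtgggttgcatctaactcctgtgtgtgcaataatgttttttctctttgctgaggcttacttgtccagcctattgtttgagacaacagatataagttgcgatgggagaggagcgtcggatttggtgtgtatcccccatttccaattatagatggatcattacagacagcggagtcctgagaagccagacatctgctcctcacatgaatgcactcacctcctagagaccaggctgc
TFAP2D: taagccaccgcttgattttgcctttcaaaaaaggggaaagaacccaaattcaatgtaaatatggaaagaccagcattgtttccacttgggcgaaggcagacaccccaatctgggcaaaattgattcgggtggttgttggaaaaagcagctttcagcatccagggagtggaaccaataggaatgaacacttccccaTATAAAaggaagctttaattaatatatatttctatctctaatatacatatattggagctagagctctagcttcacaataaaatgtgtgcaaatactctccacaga
The TATAAA began 30 bases before the start of *TFAP2A*, 202 bases before that of *TFAP2B* and 55 bases before that of *TFAP2D*, and 11.5% of all 35116 promoter windows in the table held one. The second *TFAP2A* window (chr6:10412342-10412641) and that of *TFAP2E* held none. The palindromic AP-2 motif GCCNNNGGC was in none of the 5 family windows and in 23.2% of all windows. Both *TFAP2A* windows had 18 CpG dinucleotides and *TFAP2E* had 20, against a median of 14 over all windows. *TFAP2B* had 5 and *TFAP2D* 3. These letters describe the windows only and give no binding site.

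*TFAP2A* and *TFAP2B* were near 0 up to P2. Over the 12 libraries from t0 to P2, *TFAP2A* reached at most 0.25 TPM (10 counts) and *TFAP2B* at most 0.27 TPM (22 counts). *TFAP2C* was already present in undifferentiated hESCs, at 1.70, 2.66 and 1.67 TPM in r1, r2 and r3. It was the most abundant member in every library from t0 to P2 and made up 89.9% ± 2.91 of the family's summed TPM at t0 (SD, n = 3).

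The first stages brought few changes in the family. *TFAP2C* stood at 6.16, 3.47 and 0.93 TPM at 36 h and at 5.98, 0.85 and 1.19 TPM at P1, in r1, r2 and r3. The r1 library was the highest at both stages, and it was also the library with the highest *POU5F1* (1504 TPM at 36 h and 863 TPM at P1). The part of that difference in the *TFAP2C* values was not tested. By P2 *TFAP2C* was at 0.84, 0.37 and 0.74 TPM, its lowest group, and the ranges of P2 and t0 did not overlap.

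Comparisons were tested with edgeR, each differentiation forming a block. To be called, a gene needed a Benjamini-Hochberg adjusted p under 0.01, a change of 2-fold or more, and 100 or more normalized counts on average in the groups compared. None of the 4 tested members was called between t0 and 36 h by edgeR or DESeq2, nor at an unadjusted p under 0.05 (0 of 4 in each), while 2.71% of all 21750 genes tested were called. From 36 h to P2 edgeR called 0 of 4 against 5.5% of all genes, with 1 of 4 at an unadjusted p under 0.05 and 1 by DESeq2. That member was *TFAP2C*, with a log2 difference of -2.30 (SE 0.68, edgeR adjusted p = 0.015), lower at P2 than at 36 h in all 3 differentiations.

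Between P2 and P5 *TFAP2A* and *TFAP2C* rose. *TFAP2A* was already detectable at P3 in r2 and r3, with 7.62 and 3.34 TPM at P3, when r1 was still at 0.16 TPM. At P4 it was at 0.62, 8.89 and 27.2 TPM and at P5 at 7.23, 22.9 and 60.0 TPM in r1, r2 and r3. The order of the differentiations was the same at P4 and P5, with r1 lowest and r3 highest. By principal components over the transcriptome, the paper grouped P4 of r1 with earlier passages and P4 of r2 and r3 with later ones. The part of this difference between cultures in the *TFAP2A* values was not tested.

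*TFAP2B* reached 0.40, 0.44 and 1.58 TPM at P3, 0.95, 3.29 and 9.45 TPM at P4, and 1.50, 2.94 and 11.9 TPM at P5. *TFAP2C* reached 1.68, 4.95 and 2.71 TPM at P3, 11.5, 31.0 and 12.1 TPM at P4, and 16.5, 24.1 and 13.8 TPM at P5. Its 3 differentiations lay within 2-fold of each other at P5, whereas *TFAP2A* and *TFAP2B* spread over more than 7-fold.

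All P5 libraries were above all P2 libraries for each of these 3 genes. Between P2 and P5 edgeR called 2 of the 4 tested members, against 1.37% of all genes. *TFAP2A* rose by a log2 difference of 8.16 (SE 1.35, edgeR adjusted p = 0.00078) and *TFAP2C* by 4.66 (SE 0.72, edgeR adjusted p = 0.00044). *TFAP2B* had 4.90 (SE 1.22, edgeR adjusted p = 0.015) and missed the threshold, and DESeq2 called it at 5.24 (adjusted p = 0.0017). Without r2 or without r3 neither *TFAP2A* nor *TFAP2C* was called. Their log2 fold changes were then 7.72 and 7.36 for *TFAP2A* and 4.14 and 4.85 for *TFAP2C*, with edgeR adjusted p from 0.061 to 0.11. Over all genes the calls fell from 298 to 10 without r2 and to 2 without r3. Without r1, *TFAP2B* had 6.50 and was called (edgeR adjusted p = 0.00027), where 804 of all genes were called. Markers of cell types also differed between P2 and P5, with the mean of *SOX2* at 30.6 and 173 TPM. The median log2 difference was -5.12 for paraxial mesoderm genes, 0.53 for NC genes and -0.55 for pre-neural genes, against -0.02 for all genes. The part of the cell makeup in these rises of the family was not tested.

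**Figure D1:**
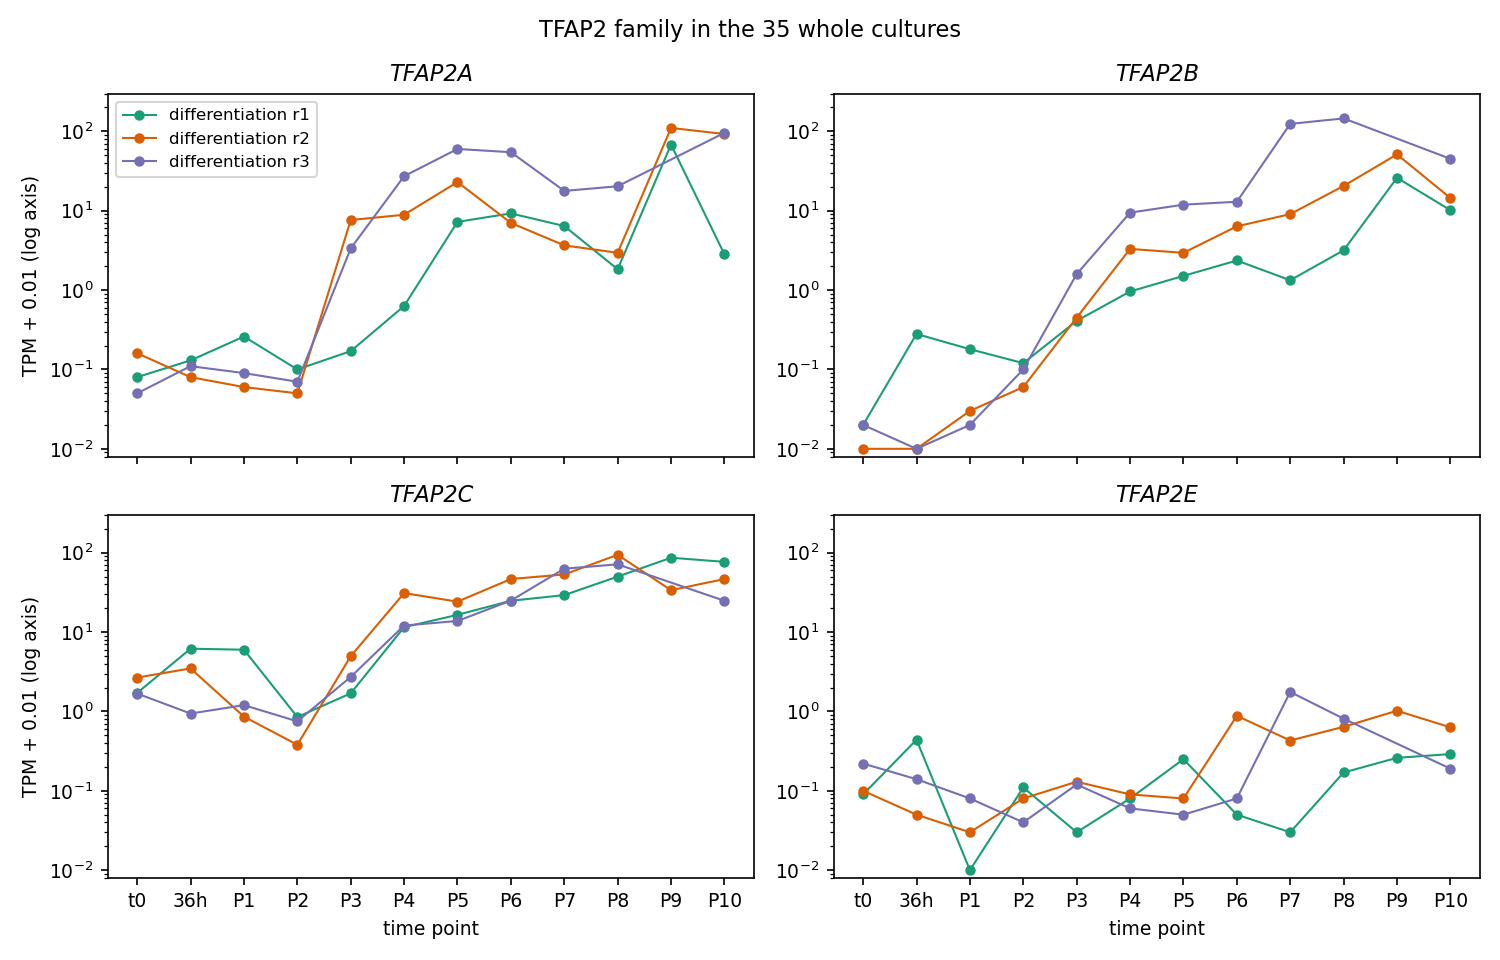
TPM + 0.01 (log axis) of 4 members against time point in the 35 whole cultures, with 1 point per library and 1 line per differentiation (the r3 line passes over P9, which has r1 and r2 only). *TFAP2A* and *TFAP2B* stay at or below 0.27 TPM to P2 (*TFAP2A* in r1 also at P3, at 0.16 TPM), *TFAP2C* starts at 1.67 to 2.66 TPM and *TFAP2E* stays at or below 1.75 TPM.

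From P5 to P8 the values of the members ran in different directions, and none of the differences was called. *TFAP2A* was at 1.82, 2.94 and 20.3 TPM at P8 in r1, r2 and r3, and each differentiation was below its own P5 value. *TFAP2B* was at 3.16, 20.5 and 146 TPM, and each differentiation was above its own P5 value. *TFAP2C* was at 49.9, 94.1 and 71.3 TPM, with all P8 libraries above all P5 libraries.

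The r3 libraries stood apart for *TFAP2B*. At P7 the gene was at 1.32, 9.05 and 124 TPM in r1, r2 and r3, so that r3 was more than 10-fold above the other two, and at P8 it was again the highest. Some NC markers were also highest in r3 at both passages. *FOXD3*, an NC specifier, was at 1.93, 5.39 and 61.3 TPM at P7 and at 9.27, 42.7 and 93.5 TPM at P8. *SOX9* was at 11.3, 27.0 and 118 TPM at P7 and at 28.5, 97.1 and 169 TPM at P8. *TWIST1* was highest in r3 as well. *SOX10* did not follow at P7, with 1.45, 1.19 and 1.61 TPM, but at P8 it was at 0.78, 1.23 and 15.2 TPM. The part of the cell makeup in the *TFAP2B* level was not tested. In bulk samples such as these, more cells of a type and more RNA per cell cannot be told apart.

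None of these P5 to P8 differences was called by edgeR, where 0.0092% of all genes (2 of 21750) were, and DESeq2 called 0 of 4 members as well. At an unadjusted p under 0.05 there were 3 of 4 members and 2892 of all 21750 genes. The log2 fold changes were -2.00 for *TFAP2A* (SE 0.92, edgeR adjusted p = 0.35), 2.96 for *TFAP2B* (SE 1.00, edgeR adjusted p = 0.18) and 2.07 for *TFAP2C* (SE 0.62, edgeR adjusted p = 0.13). Without r1, *TFAP2B* was called at 3.40 (edgeR adjusted p = 0.0069), where 100 of all genes were called.

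At P9 *TFAP2A* reached its highest levels, 68.2 TPM in r1 and 110 TPM in r2. These were 37.5 and 37.6 times the P8 values of the same differentiations. *TFAP2B* was at 26.0 and 51.2 TPM, above its P8 value in both differentiations. *TFAP2C* was at 86.4 and 33.7 TPM, above its P8 value in r1 and below it in r2. In edgeR *TFAP2A* was the 1 member of 4 called between P8 and P9, against 1.22% of all genes, with a log2 difference of 4.76 (SE 1.09, edgeR adjusted p = 0.0098). The call was lost without the block (3.49, edgeR adjusted p = 0.13), without the filter on low counts (4.74, edgeR adjusted p = 0.012) and without r3 (5.28, edgeR adjusted p = 0.079). Over all genes the calls fell from 265 to 15, 200 and 0 in these settings. Without r2 the log2 difference was 4.91. Without r2, as without r1, P9 is 1 library, which the fit takes to vary like the other groups. Marker genes of the cell types differed between the same groups. P9 has no r3 library, so levels are given for r1 and r2. *SOX2* was at 319.9 and 132.5 TPM at P8 and at 4.88 and 5.98 TPM at P9. *CDX2* was at 356 and 108 TPM and then at 7.29 and 7.21 TPM. *TWIST1* was at 18.6 and 90.8 TPM and then at 460 and 528 TPM, but not all NC markers followed. *FOXD3* was at 9.27 and 42.7 TPM at P8 and at 5.84 and 14.4 TPM at P9. *SOX9* was at 28.5 and 97.1 TPM and then at 21.3 and 40.3 TPM. Over the 13 NC genes the median log2 difference was -0.22. The part of this difference in makeup was not tested. *TFAP2B* had 1.25 (SE 1.05, edgeR adjusted p = 0.48) and *TFAP2C* -0.47 (SE 0.69, edgeR adjusted p = 0.72).

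At P10 the differentiations split. *TFAP2A* was at 2.81 TPM in r1, near its P8 level, and at 92.6 and 95.8 TPM in r2 and r3. *TFAP2C* ran the other way, with 76.7 TPM in r1 against 46.5 and 24.8 TPM. The r1 library is the one that still held *SOX2* and *CDX2*, and its *TWIST1* was at 66.4 TPM against 489 and 412 TPM in r2 and r3. *SNAI2*, a factor of migrating NC, was likewise at 52.0 TPM against 270 and 368 TPM. Not all NC markers followed, with *FOXD3* at 11.9 TPM in r1 against 0.30 and 1.90 TPM and *SOX9* at 42.9 TPM against 1.57 and 9.16 TPM. The part of this difference in makeup was not tested.

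*TFAP2B* at P10 was at 10.2, 14.5 and 45.1 TPM, which was above P8 in r1 and below it in r2 and r3. Between P8 and P10 edgeR called 0 of 4 members, against 0.0874% of all genes, with 1 of 4 at an unadjusted p under 0.05 and 0 by DESeq2. *TFAP2A* had a log2 difference of 3.16 (SE 0.98, edgeR adjusted p = 0.091), and without r1 it was called at 3.70 (edgeR adjusted p = 0.0066). Over all genes 917 were called without r1, against 19 with all differentiations.

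Against t0, 22 of the 44 member contrasts that could be tested were called, over 11 later time points, where 13.6% of all gene contrasts were. These contrasts share the t0 libraries and are not independent. *TFAP2A* was called at P3 and at each later passage, and *TFAP2B* and *TFAP2C* at P4 and at each later passage. The log2 fold change of *TFAP2A* was 6.04 at P3 (SE 1.40, edgeR adjusted p = 0.0012) and its highest value was 11.62 at P9 (SE 1.53, edgeR adjusted p = 1.4e-06). With r2 or with r3 left out 15 contrasts were called. The calls lost were those of *TFAP2A* at P3 and P4 and of *TFAP2C* at P4 and P5 without either, of *TFAP2A* at P6, P7 and P8 without r3, and of *TFAP2B* at P4, P5 and P6 without r2 (edgeR adjusted p from 0.011 to 0.086).

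*TFAP2B* had at most 2 counts in any t0 library, so its fold is given as a lower bound, with 3 counts per t0 library as the floor. It was at least 152-fold higher at P4, 165-fold at P5 and 224-fold at P6. At P8 it was at least 1.89e+03-fold higher and at P10 at least 860-fold. The r3 libraries carried much of these bounds, which without r3, a setting chosen after seeing the data, were 76.2-fold at P4, 73-fold at P5, 133-fold at P6, 398-fold at P8 and 405-fold at P10. At P3 its mean of 35.9 normalized counts kept it below the minimum of 100, although its edgeR adjusted p was 0.0083. *TFAP2C* was lower than at t0 at P2 by a log2 difference of -1.67 (SE 0.67, edgeR adjusted p = 0.049, not called) and higher by 3.02 at P4 (SE 0.65, edgeR adjusted p = 0.00062) and by 5.07 at P8 (SE 0.71, edgeR adjusted p = 3.8e-06).

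**Figure D2:**
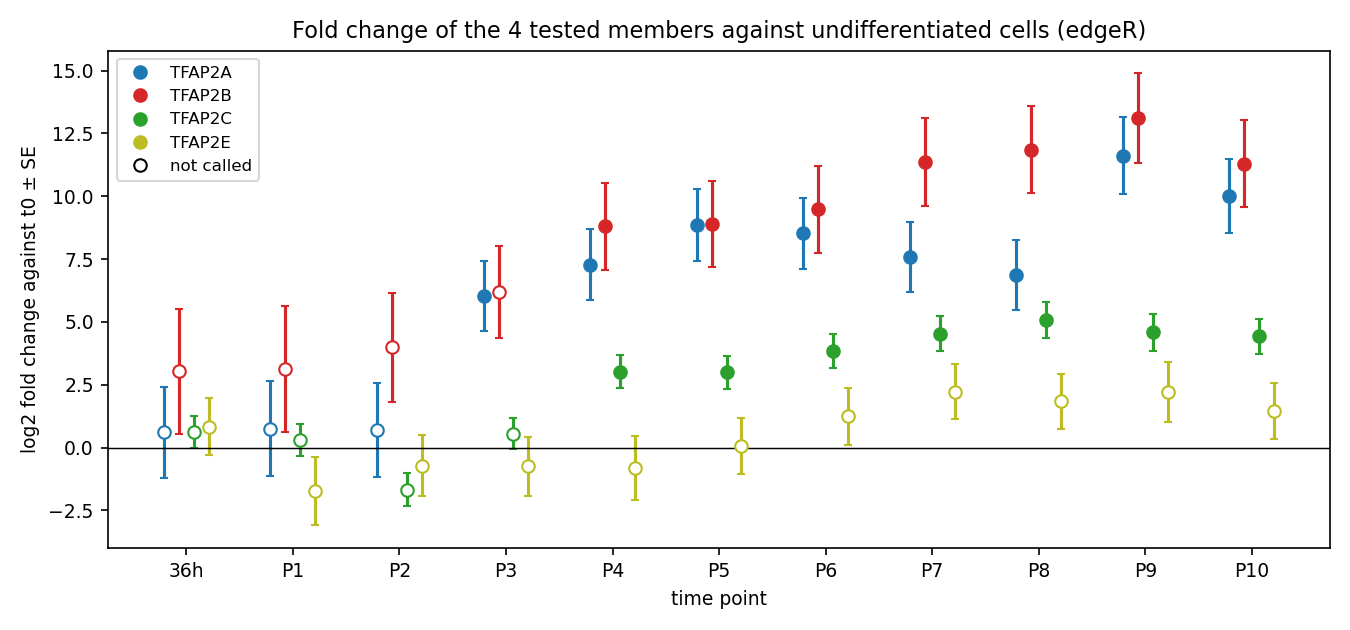
Log2 fold change against t0 (vertical axis, bars are the SE of the edgeR fit) at each later time point for the 4 tested members, with filled points where the gene was called and open points where it was not. *TFAP2A* is filled from P3 and *TFAP2B* and *TFAP2C* from P4, while *TFAP2E* has no filled point; the fitted *TFAP2B* values rest on at most 2 counts per t0 library and are no bounds.

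The lead within the family changed with time and differed between differentiations. *TFAP2C* was the most abundant member by TPM in 25 of the 35 whole cultures, *TFAP2A* in 8 and *TFAP2B* in 2. In r1, *TFAP2C* led at all 12 time points. In r3, *TFAP2A* led from P3 to P6 and at P10, and *TFAP2B* led at P7 and P8, with 60.1% and 61.2% of the summed TPM.

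At P5 the share of *TFAP2A* was 28.4%, 45.8% and 70.0% in r1, r2 and r3, and that of *TFAP2C* was 64.7%, 48.2% and 16.1%. At P8 the share of *TFAP2A* was 3.30%, 2.49% and 8.54%. The summed TPM of the family went from 2.23 ± 0.58 at t0 to 53.8 ± 30.3 at P5 and 137 ± 93.0 at P8 (SD, n = 3 each). TPM divides by the transcript length that RSEM estimates, and for *TFAP2B* that length moved between 3192 and 4954 bases over the 33 libraries with at least 100 counts. With counts divided by the length of the longest coding transcript instead, a setting chosen after seeing the data, no group's share moved by more than its SD from P3 on.

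**Figure D3:**
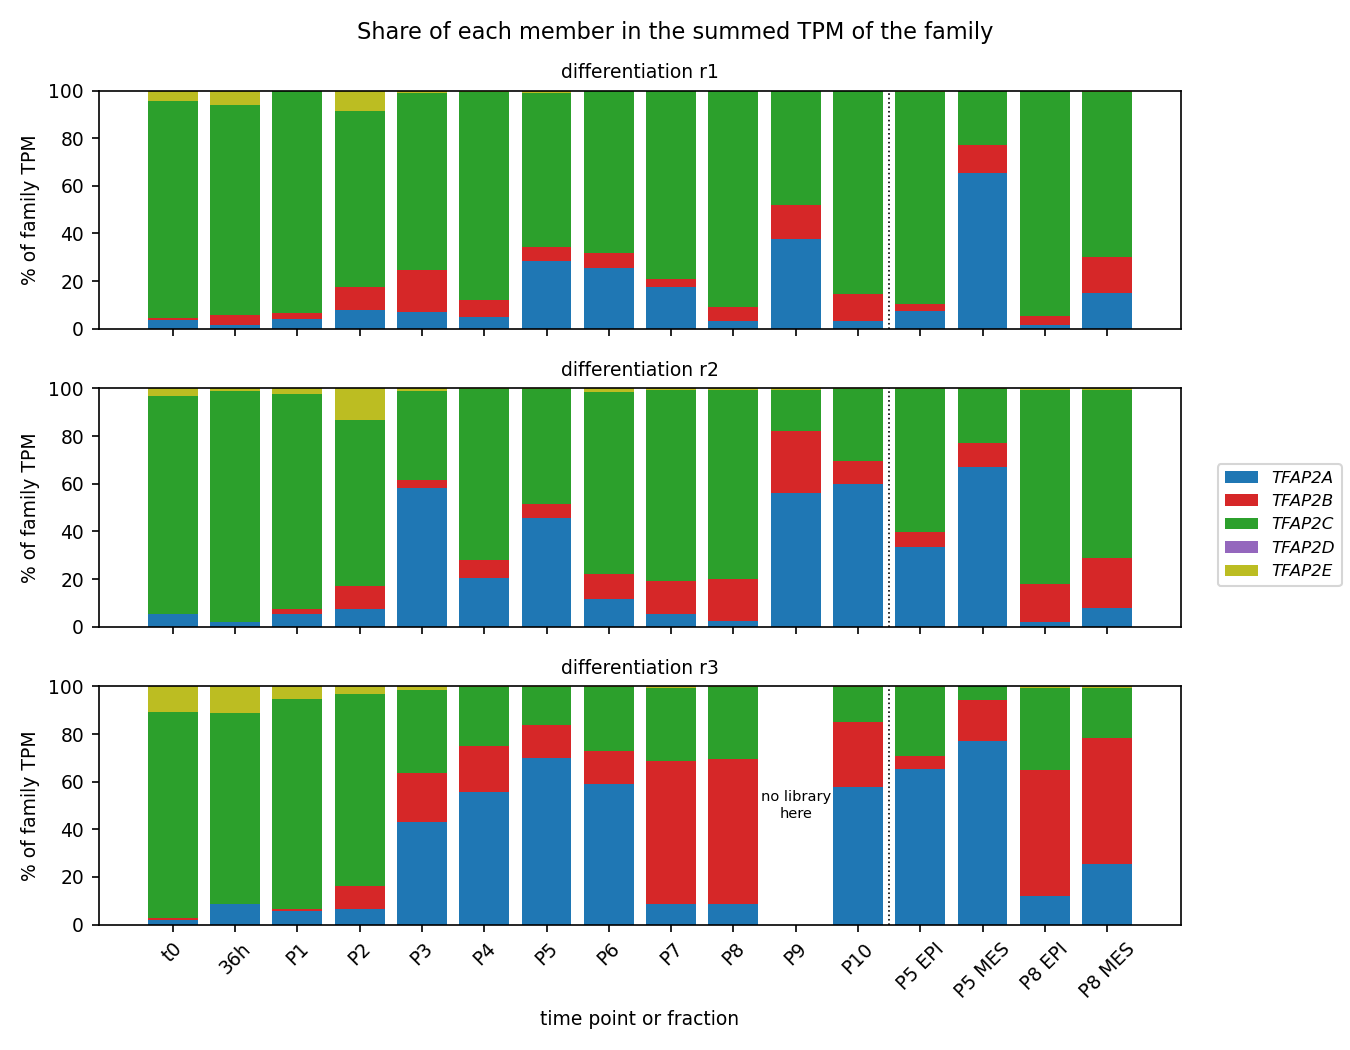
Share of each member in the summed TPM of the family (percent, stacked bars from 0 to 100) in every library, with 1 row per differentiation and the fractions to the right of the dotted line. *TFAP2C* (green) fills most of each bar up to P2 and throughout the whole cultures of r1 except P9, *TFAP2A* (blue) is largest in the P5 MES fractions, and *TFAP2B* (red) holds over 50% in the P7 and P8 libraries of r3 alone.

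The direction of the difference between EPI and MES was not the same for all members, and edgeR called none of these differences. At P5 *TFAP2A* was at 1.69, 14.9 and 39.4 TPM in EPI and at 24.6, 46.6 and 88.2 TPM in MES, in r1, r2 and r3. *TFAP2B* was at 0.74, 2.79 and 3.42 TPM in EPI and at 4.33, 7.03 and 19.6 TPM in MES. *TFAP2C* ran the other way, with 20.5, 26.7 and 17.5 TPM in EPI and 8.60, 15.8 and 6.51 TPM in MES. The ranges of the EPI and MES libraries did not overlap for *TFAP2B* and *TFAP2C* and overlapped for *TFAP2A*, and the direction was the same in 3 of 3 differentiations for each gene.

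At P5 *TFAP2A* made up 7.33%, 33.5% and 65.1% of the family's TPM in EPI and 65.4%, 67.0% and 77.1% in MES. *TFAP2C* made up 89.0%, 60.0% and 28.9% in EPI and 22.9%, 22.8% and 5.70% in MES. These shares are given as values, with no test.

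The same fractions were taken at P8. *TFAP2A* was at 0.73, 2.16 and 23.2 TPM in EPI and at 8.69, 7.96 and 61.0 TPM in MES. *TFAP2B* was at 2.21, 19.5 and 103 TPM in EPI and at 8.56, 20.7 and 127 TPM in MES. *TFAP2C* was at 50.5, 99.8 and 67.2 TPM in EPI and at 39.7, 69.6 and 50.4 TPM in MES. Each gene again had the same direction in 3 of 3 differentiations, and the ranges of EPI and MES overlapped for all 3.

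edgeR called 0 of 4 members between MES and EPI at P5, where it called 0% of all 18885 genes tested, while 4894 genes passed an unadjusted p under 0.05 and DESeq2 called 674. The members at an unadjusted p under 0.05 were 3 of 4, and DESeq2 called 1. The log2 fold changes of MES over EPI were 2.21 for *TFAP2A* (SE 0.67, edgeR adjusted p = 0.079), 2.13 for *TFAP2B* (SE 0.71, edgeR adjusted p = 0.1) and -1.09 for *TFAP2C* (SE 0.19, edgeR adjusted p = 0.019). The member called by DESeq2 was *TFAP2C*, at -1.10 (adjusted p = 3.6e-06).

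At P8 edgeR called 0 of 4 members and 0% of all genes, with 2261 genes and 2 of 4 members at an unadjusted p under 0.05, and DESeq2 called 55 genes and 0 members. The log2 fold changes of MES over EPI were 2.08 for *TFAP2A* (SE 0.67, edgeR adjusted p = 0.32), 0.51 for *TFAP2B* (SE 0.65, edgeR adjusted p = 0.79) and -0.45 for *TFAP2C* (SE 0.18, edgeR adjusted p = 0.4). The change of the MES to EPI difference from P5 to P8 was tested as an interaction. edgeR called 0 of 4 members and 0% of all genes for it, with 1152 genes and 1 of 4 members at an unadjusted p under 0.05, and DESeq2 called 1 gene and 0 members. The interaction was -0.13 for *TFAP2A* (SE 0.90, edgeR adjusted p = 0.99), -1.62 for *TFAP2B* (SE 0.95, edgeR adjusted p = 0.85) and 0.64 for *TFAP2C* (SE 0.26, edgeR adjusted p = 0.82), so a difference between the passages was not shown.

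**Figure D4:**
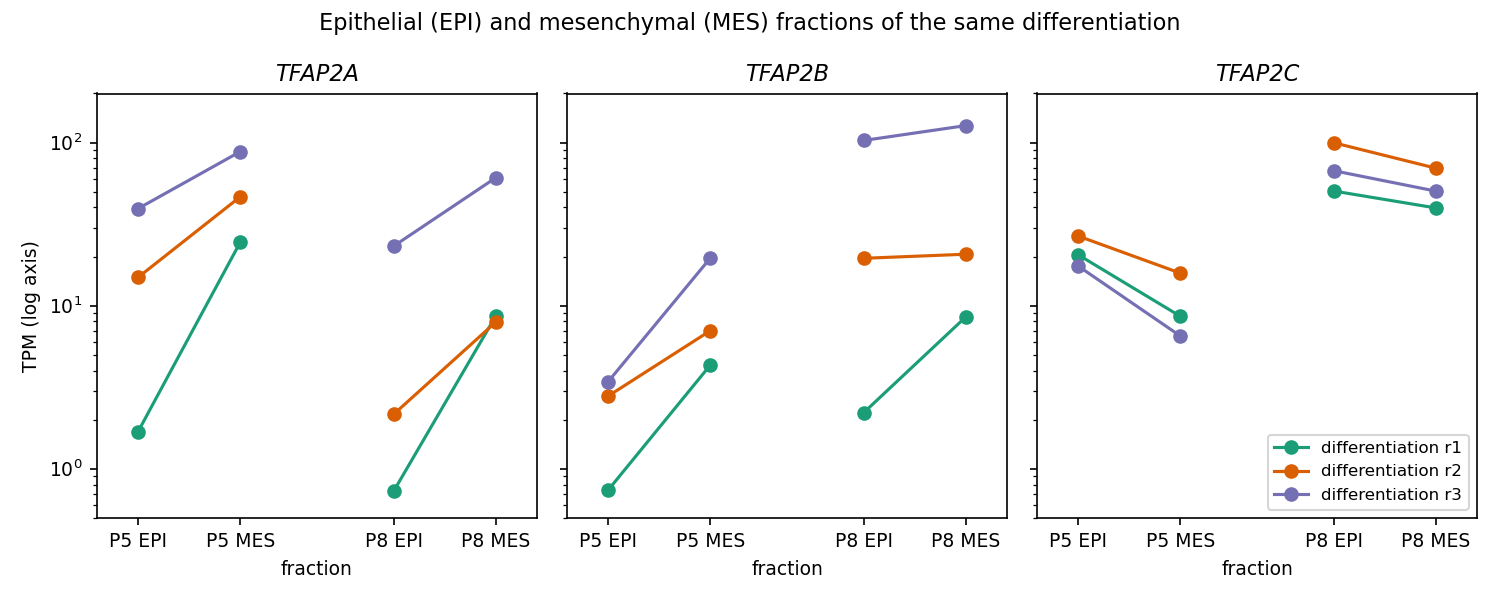
TPM (log axis) of *TFAP2A*, *TFAP2B* and *TFAP2C* in the EPI and MES fractions at P5 and P8, with 1 line joining the fractions of each differentiation. All 3 lines rise from EPI to MES for *TFAP2A* and *TFAP2B* and fall for *TFAP2C* at both passages, and every *TFAP2C* value at P8 (39.7 to 99.8 TPM) is above every value at P5 (6.51 to 26.7 TPM).

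Within each fraction *TFAP2C* rose from P5 to P8, and edgeR called no other member there, while DESeq2 also called *TFAP2B* in EPI. Its log2 fold change was 1.78 in EPI (SE 0.19, edgeR adjusted p = 0.0071), where 0.259% of all genes were called, and 2.42 in MES (SE 0.19, edgeR adjusted p = 0.003), where 0.699% were. All P8 fractions were above all P5 fractions. Without the block the values were 1.82 (edgeR adjusted p = 0.071) and 2.37 (edgeR adjusted p = 0.039), and neither was called. Both calls were also lost without r2 (1.68 and 2.58) and without r3 (1.64 and 2.20), with edgeR adjusted p from 0.034 to 0.23. The same held with all 47 libraries in the fit, at 1.83 (edgeR adjusted p = 0.059) and 2.45 (edgeR adjusted p = 0.021). With the 6 compared libraries the values were 1.79 (edgeR adjusted p = 0.077) and 2.44 (edgeR adjusted p = 0.046), again not called. Over all genes the calls fell likewise, from 49 in EPI and 132 in MES. They were 0 and 1 without the block, and 0 in each without r2 or without r3. With all 47 libraries they were 6 and 12, and with the 6 compared libraries 0 in each.

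*TFAP2B* had a log2 fold change of 3.32 in EPI (SE 0.75, edgeR adjusted p = 0.035, called by DESeq2 at 3.28) and 1.70 in MES (SE 0.68, edgeR adjusted p = 0.13), higher at P8 in 3 of 3 differentiations in each. *TFAP2A* had -1.47 in EPI (SE 0.67, edgeR adjusted p = 0.17) and -1.61 in MES (SE 0.65, edgeR adjusted p = 0.13), lower at P8 in 3 of 3 in each.

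*TFAP2E* stayed low in all groups. Its highest value was 1.75 TPM (98 counts), in r3 at P7, and it reached 1 TPM in 4 of 47 libraries. Up to P5 no whole culture exceeded 0.43 TPM. It was called in none of the 11 contrasts against t0. In the fractions it was at 0.11, 0.08 and 0.16 TPM in EPI and 0.07, 0.06 and 0.04 TPM in MES at P5, against 0.19, 0.58 and 1.24 TPM and 0.25, 0.72 and 1.45 TPM at P8. The log2 fold change from P5 to P8 was 2.27 in EPI (SE 0.59, edgeR adjusted p = 0.046) and 3.49 in MES (SE 0.66, edgeR adjusted p = 0.019), on means of 20.4 and 22.0 normalized counts, below the minimum for a call.

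*TFAP2D* was not detectable. It had 0 counts in 44 libraries and 1 count in 3 (P4 of r1, P4 of r2 and the P8 EPI fraction of r2), and it did not enter any test. A count of 0 allows up to 3 counts, and this covers counting error only. In the same libraries its neighbour *TFAP2B* reached 13417 counts.

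*TFAP2A-AS1* was at most 8.04 TPM. In the 32 libraries with at least 100 *TFAP2A* counts it had 0.617 to 6.85 counts per 100 counts of *TFAP2A*, with a median of 2.71. It had 0 counts at t0 and in each library up to P2, and its log2 fold change was 5.00 from P8 to P9 (SE 0.98, edgeR adjusted p = 0.0072, mean below the minimum). Whether the strand was used in counting is not given in the sources used here, so reads of this gene and of *TFAP2A* cannot be told apart where they overlap. *TFAP2E-AS1* was at most 1.21 TPM.

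Ordered by mean TPM over the 16 groups, *TFAP2A* was highest at P9 (89.3 ± 29.9, n = 2), P10 (63.7 ± 52.8, n = 3) and in the MES fraction of P5 (53.1 ± 32.3, n = 3). *TFAP2B* was highest at P8 (56.5 ± 77.8), in the P8 MES fraction (52.1 ± 65.3) and at P7 (44.9 ± 68.8, n = 3 each), where the SD exceeded the mean because of r3. P9 has no r3 library, so its mean is not over the same differentiations. In both r1 and r2 *TFAP2B* was highest at P9, at 26.0 and 51.2 TPM against 3.16 and 20.5 TPM at P8. *TFAP2C* was highest in the P8 EPI fraction (72.5 ± 25.1), at P8 (71.8 ± 22.1, n = 3 each) and at P9 (60.1 ± 37.3, n = 2). Each group's range overlapped that of the next in the order, with the exceptions of P3 above 36 h for *TFAP2B*, and the P5 MES fraction above 36 h and t0 above P2 for *TFAP2C*.

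Across the 35 whole cultures the log2 CPM of *TFAP2A* and *TFAP2B* had a Pearson correlation of 0.89, that of *TFAP2B* and *TFAP2C* 0.87 and that of *TFAP2A* and *TFAP2C* 0.79. The points share differentiations and time points, so these values describe the libraries and carry no test. Over the 12 fractions the values were 0.47, 0.40 and -0.50.

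The 5 genes with the highest correlation to *TFAP2A* over the 35 libraries, among the 13379 genes compared, were *CPED1* (0.97), *DNM3OS* (0.96), *FAP*, *TNS3* and *TMEM204* (0.95 each). *FAP* encodes a membrane protease of mesenchymal cells and *TNS3* a focal adhesion protein. Those of *TFAP2B* were AL356309.3 (0.95), *MIR100HG*, *DLX5*, *FAP* and AL356309.2 (0.94 each), of which *DLX5* is a homeobox factor of the neural plate border and NC. The AL356309 genes lie beside each other on chromosome 9.

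Those of *TFAP2C* were AC126773.2 (0.95), *TMEM117* (0.94), *HOXC13* and *HOTAIR* (0.93 each) and *HOXD10* (0.92). *HOXC13* and *HOXD10* are homeobox factors of posterior identity, and *HOTAIR* is a non-coding RNA of the *HOXC* cluster. Over the 12 fractions, which did not enter the choice, the correlations of the 5 genes were 0.60 (*FAP*) to 0.98 (*CPED1*) with *TFAP2A*, 0.82 (*FAP*) to 0.87 with *TFAP2B* and 0.72 (*TMEM117*) to 0.97 (AC126773.2) with *TFAP2C*. With log2(TPM + 1) the lists kept 1, 1 and 3 of their 5 genes, for *TFAP2A*, *TFAP2B* and *TFAP2C*, and with Spearman's rho 2 each.

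Genes of proteins that work with AP-2 were taken as lists. Of the 6 co-activators, which were CITED1, CITED2, CITED4, EP300, CREBBP and YEATS4, edgeR called 0 in all 11 comparisons, with 24 of 66 tests at an unadjusted p under 0.05 and 1 called by DESeq2. Over all genes and the same comparisons edgeR called 1.13% of tests, and 22.7% had an unadjusted p under 0.05. Their median log2 fold change from P2 to P5 was 0.13, against -0.02 for all genes. *CITED1*, a transcriptional co-activator, was at 9.32, 196 and 65.2 TPM at P1 and at 277, 14.9 and 7.82 TPM at P2 in r1, r2 and r3. *CITED2*, which bridges AP-2 to p300/CBP, lay between 41.6 and 182 TPM in all libraries. The 7 inhibitors and modifiers, among them KCTD1, KCTD15 and WWOX, likewise had 0 called in 11 comparisons, with 21 of 77 tests at an unadjusted p under 0.05 and 0 by DESeq2. *KCTD15*, a repressor of AP-2 activity, lay between 20.5 and 92.4 TPM in all libraries.

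Of 12 genes described as AP-2 targets, 11 were tested and edgeR called 4 of 121 tests, with 44 at an unadjusted p under 0.05 and 13 called by DESeq2. Over the same 11 comparisons edgeR called 1.13% of all genes' tests. *ERBB2*, a receptor tyrosine kinase, fell by 2.19 on the log2 scale from t0 to 36 h (SE 0.23, edgeR adjusted p = 9.6e-07) and by 1.17 from P2 to P5 (SE 0.23, edgeR adjusted p = 0.0029). Its mean was then 16.9 TPM at P5 and 33.4 TPM at P8, a difference that was not called. The part of the AP-2 genes in these changes was not tested. *CDKN1A*, a cell cycle inhibitor, rose by 1.17 from P5 to P8 in MES (SE 0.17, edgeR adjusted p = 0.0096). *VEGFA*, an angiogenic growth factor, was called from P8 to P9 at 2.90 (SE 0.66, edgeR adjusted p = 0.01 when rounded), but the P9 libraries were at 14.7 and 140 TPM against 12.9 to 13.6 TPM at P8, so that 1 library carried the difference. The list's median from P2 to P5 was 0.02, against -0.02 for all genes.

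Other factors of the neural plate border were also followed. Of 11 such genes, all tested, edgeR called 3 higher from t0 to 36 h, where it called 2.71% of all genes. They were *MSX1* at 7.21 (SE 0.85, edgeR adjusted p = 3.5e-06), *GBX2* at 5.28 (SE 0.74, edgeR adjusted p = 4.3e-05) and *MSX2* at 4.52 (SE 0.94, edgeR adjusted p = 0.0023) on the log2 scale. From 36 h to P2, beside 5.5% of all genes, 2 were called higher, *ZIC1* at 4.37 (SE 1.07, edgeR adjusted p = 0.0046) and *PAX3* at 3.28 (SE 0.51, edgeR adjusted p = 9.2e-05). From P2 to P5 edgeR called 0 of 11, with 3 at an unadjusted p under 0.05 and 2 by DESeq2, although the list's median was 1.13 against -0.02 for all genes. *MSX2* was called again from P8 to P9, at 4.90 (SE 0.84, edgeR adjusted p = 0.0022), with *TFAP2A*.

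Of 13 NC genes, all tested, 1 was called higher by edgeR in each of 5 comparisons and none lower in any of the 11. These were *SNAI2* from t0 to 36 h (4.38, SE 0.87), *TWIST1* from 36 h to P2 (6.18, SE 1.07) and from P8 to P9 (3.89, SE 0.89), *ETS1* from P2 to P5 (2.89, SE 0.62) and *SOX9* from P5 to P8 in EPI (2.05, SE 0.20). edgeR called 5 of 143 tests of this list (56 at an unadjusted p under 0.05, 22 by DESeq2), beside 1.13% of all genes' tests. Between the P5 fractions edgeR called 0 of the 13, with 9 at an unadjusted p under 0.05 and 5 by DESeq2, and the median of MES over EPI was 1.44 on the log2 scale. The summed TPM of the list was 168.6 to 194 at t0, 220 to 532 at P5, 205 to 1105 at P8, 1146 to 1189 at P9 and 311 to 999 at P10. *TWIST1* (mean 494 TPM) and *SNAI2* (mean 358 TPM) made up most of the sum at P9, and the median log2 difference of the 13 genes was -0.22 from P8 to P9 and -0.79 from P8 to P10.

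AP-2 factors are also known from other cell types, and markers of these were summed. Over the 10 surface ectoderm and placode genes the summed level was 2.99 to 4.30 TPM at t0, 8.05 to 15.3 TPM at P5 and 17.0 to 121 TPM at P8, of which *TP63*, a defining factor of surface ectoderm, was at most 1.75 TPM in any library. In this list edgeR called 2 of 89 tests, with 31 at an unadjusted p under 0.05 and 12 by DESeq2. Over all genes edgeR called 1.13% of tests, and 22.7% had an unadjusted p under 0.05. Of this list *DLX3*, a homeobox factor, rose by 4.00 on the log2 scale from P8 to P9 (SE 0.89). The 10 amnion and trophoblast genes summed to 0.82 to 1.48 TPM at P8 and 7.22 to 14.3 TPM at P9, with *GATA3*, a trophoblast factor, at most 6.35 TPM in any library. Of their 73 tests edgeR called 1, with 27 at an unadjusted p under 0.05 and 2 by DESeq2. That call was *KRT7*, which fell by 4.65 from t0 to 36 h (SE 0.88), where 2.71% of all genes were called.

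The 7 germ cell genes summed to 23.4 to 27.0 TPM at t0, 31.6 to 37.4 TPM at P8 and 37.4 to 101 TPM at P9. *SOX17*, a defining factor of human primordial germ cells, was at most 0.03 TPM in any library. *NANOS3*, a germ cell RNA-binding protein, was at 0.10 to 0.44 TPM at t0 and reached 10.5 TPM in r1 at P10, and *PRDM1*, also a neural plate border gene, was at 0.34 to 0.48 TPM at t0 and reached 45.1 TPM in r2 at P9. None of that list was called in the 11 comparisons by edgeR, with 12 of 50 tests at an unadjusted p under 0.05 and 2 by DESeq2. Neuron markers had 0 of 77 tests called (15 at an unadjusted p under 0.05, 1 by DESeq2). The pluripotency, NMP, pre-neural and paraxial mesoderm lists had 6 of 72, 8 of 110, 3 of 99 and 2 of 73 tests called by edgeR, beside 1.13% of all genes' tests. Among them were *POU5F1*, which fell by 8.24 from 36 h to P2 (SE 1.32), *TBXT*, which rose by 11.26 from t0 to 36 h (SE 1.80), *POU3F2*, which rose by 4.97 from 36 h to P2 (SE 1.00), and *MSGN1*, which rose by 14.22 from t0 to 36 h (SE 2.94). In the same order of lists, 28, 39, 30 and 16 tests had an unadjusted p under 0.05, and DESeq2 called 10, 16, 5 and 9. From P2 to P5 the paraxial mesoderm list had a median log2 difference of -5.12, against -0.02 for all genes. Of its 8 genes edgeR called 0 there, with 7 at an unadjusted p under 0.05 and 5 by DESeq2.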

How the data were processed

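RNA of 47 cultures was sequenced as polyA-selected libraries (75-base single-end reads). RSEM was run on every library by the authors, who deposited per gene the estimated (expected) counts, TPM and transcript lengths in bases. GEO's processing notes name cutadapt 1.16, STAR 2.5.2b, RSEM 1.3.0 and GRCh38, and the annotation release and strand setting are not given in the sources used here. The deposited TPM are expected counts divided by effective length and scaled per library, and 9.33% of the expected counts were not whole (tolerance 0.005). Of 58051 genes, 57447 had a GENCODE 29 symbol. No pair of replicate libraries agreed within sampling noise.

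Expected counts were rounded and tested with edgeR 4.0.16 (R 4.3.3, limma 3.58.1): TMM normalization, filterByExpr, glmQLFit and glmQLFTest, blocked by differentiation (replicate number). Adjusted p-values are Benjamini-Hochberg values across all genes tested. The 35 whole cultures (21750 genes) and the 12 fractions (18885 genes) were fitted separately. A gene was called at FDR under 0.01, a 2-fold or larger change and 100 or more normalized counts on average in the groups compared. These cut-offs are those of the study, which applied the last to DESeq2's base mean and not to the mean of the compared groups. The SE is the absolute log2 fold change divided by the square root of F. Normalized counts are counts divided by TMM factors over all 47 libraries. The series' design text says that each experiment ran through all time points, so replicate numbers pair the libraries. Deviations from the group means correlated at 0.14 between same-numbered and -0.07 between different-numbered whole cultures, and at 0.42 against -0.21 between fractions. The negative values follow largely from centring each group on its own mean and add nothing on the pairing.

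Log2 CPM for correlations used a prior count of 2. Genes named in the text are the 5 members, their antisense genes, for each member averaging 100 or more normalized counts the 5 genes most correlated with it over the 35 whole cultures, and the called members of fixed lists. *FOXD3*, *SOX2*, *CDX2*, *TWIST1*, *SOX10*, *POU5F1* and other list genes given only as levels were named after their values were seen. The lists were AP-2 co-activators, inhibitors and modifiers, targets, neural plate border genes and markers of NC, pluripotent, NMP, pre-neural, surface ectoderm, trophoblast, germ, neuron and mesoderm cells. The members and the lists were chosen with earlier results of these data known. Alternatives were DESeq2 1.42.0, DESeq2's size factors, no block, no count filter, all 47 or the 6 compared libraries in the fit, other thresholds and leaving out each differentiation. The fits were run on simulated counts with the same dispersion for all genes and no differentiation effect. That setting is simpler than these data and does not show how the fits perform on them. The independent differentiations are the replicates, in 1 cell line. Some genes of the lists are not reported here by name.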

Additional observations from a re-analysis of the deposited data

How the results depend on the processing

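The number of member contrasts called against t0 was 22 with DESeq2, with DESeq2's size factors and without the replicate block, and 15 to 23 when 1 differentiation was left out. With 1 left out, the members called numbered 0 to 3 from P2 to P5, and 0 to 1 from P5 to P8, from P8 to P9, from P8 to P10 and from P5 to P8 in EPI and in MES. The call of 1 member was lost (0 called) from P8 to P9 with no replicate block or no count filter, and from P5 to P8 in each fraction with no replicate block, all 47 libraries or the 6 compared libraries in the fit. Calls over all genes fell in these settings as well. DESeq2 and an FDR under 0.05 called 1 member from 36 h to P2 and between the P5 fractions, and 2 from P5 to P8 in EPI, and all 47 libraries called 1 from 36 h to P2. From P2 to P5, DESeq2, an FDR under 0.05 and all 47 libraries in the fit each called *TFAP2B* as well. With all 47 libraries its log2 difference was 4.91 (edgeR adjusted p = 0.0051). The cause was not tested.

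Values that changed sign all belonged to differences that were not called. For *TFAP2A* from 36 h to P2 the log2 difference was -0.32 with no replicate block and -0.02 with DESeq2, and for *TFAP2B* from P8 to P9 it was -0.39 with no replicate block. With 1 differentiation left out, *TFAP2A* ranged from -0.02 to 1.15 from t0 to 36 h, from -0.60 to 0.39 from 36 h to P2 and from -0.48 to 0.28 for the interaction. *TFAP2B* ranged from -2.18 to 3.40 from t0 to 36 h and from -1.04 to 0.24 from P8 to P10. *TFAP2C* ranged from -0.08 to 1.10 from t0 to 36 h, from -0.96 to 1.01 from t0 to P1 and from -1.68 to 0.26 from P8 to P9. *TFAP2E* ranged from -0.73 to 1.75 from t0 to 36 h, from -0.03 to 0.95 from P2 to P5, from -0.41 to 0.69 from P8 to P9 and from -0.77 to 0.32 from P8 to P10. Of 785 log2 differences under alternatives, 720 kept their direction and their side of the threshold. Calls over all genes moved with the tool as well: from P2 to P5 there were 298 with edgeR and 696 with DESeq2, from P5 to P8 2 and 155, from P8 to P9 265 and 819, from P8 to P10 19 and 307, and from P5 to P8 49 and 606 in EPI and 132 and 751 in MES. Depth limits what can be said of *TFAP2D* and *TFAP2E*, and of *TFAP2A* and *TFAP2B* before P3.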
